A study of Rattus norvegicus with 2 samples.

Results

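The regions described here are strong HMGB2 peaks of phenylephrine-treated heart muscle cells at which no peak was called in untreated cells. They were chosen from the deposited peak lists as phenylephrine peaks on chromosomes 1 to 20 with a score of at least 100 and a width of at least 270 bp that overlapped no basal peak by 1 bp or more. This gave 1282 members out of 2974 strong phenylephrine peaks within the same limits. The other 1692 overlapped a basal peak and are called shared below. Members were thus 43.1% of the strong peaks (Wilson 95% interval 41.3 to 44.9%), while 79.2% of all 41551 phenylephrine peaks on these chromosomes, of any score, overlapped no basal peak. The overlap is what chose the members, so such shares describe them and test nothing. The full lists held 42691 phenylephrine and 43721 basal peaks.

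Chromatin bound by HMGB2 was precipitated with an antibody and sequenced (ChIP-seq) from primary ventricular myocytes of neonatal Sprague Dawley rats, taken at 1 day of age. The basal group was 1 library of cells given no treatment. The phenylephrine group was 1 library of cells given 10 µM phenylephrine for 48 h. Cells of both groups were plated for 24 h in medium with serum and then moved to medium with insulin, transferrin and selenite. The sources used here do not give how long the basal cells stayed in culture after that, nor how many animals or cultures went into a library. The labelled cell type was not checked against marker genes, because a peak list holds no expression values and the peaks were not assigned to genes. Neither condition was replicated and the treatment could not be tested, so every difference below is one between 2 libraries.

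HMGB2 is a small chromatin protein of the high mobility group B family. Its HMG box domains bind the minor groove with little sequence preference and bend the DNA, which loosens or reshapes the packing of nucleosomes and eases the binding of other factors. Phenylephrine activates alpha-adrenergic receptors and makes cultured neonatal myocytes grow without dividing, a standard model of cardiac hypertrophy in which genes of the fetal heart are switched on again. The study's title sets HMGB proteins beside CTCF, a protein that marks the borders of chromatin loops and domains. A peak called only in the phenylephrine library is one place where the position of HMGB2 could differ between resting and growing cells. A missing call in the basal library does not show that HMGB2 was absent there.

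The members lay in the lower part of the strong range. The score is the authors' own value for each peak within its list, on a scale that the sources used here do not give. Members scored from 100 to 420 with a median of 112 (95% interval 111 to 112), and 90% of their scores lay between 101 and 153 (5th and 95th percentiles). Shared peaks had a median of 124 (122 to 125) and reached 3107. Of the members, 73 scored at least 150 (5.69%) and 6 scored at least 200. Of the shared peaks, 415 scored at least 150 (24.5%) and 160 scored at least 200. The best member ranked 94 in the whole phenylephrine list, and the median member ranked 2024.

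The share of strong peaks that lacked a basal peak fell with each step in score. It was 54.4% (52.0 to 56.8%) for scores from 100 to below 120, where 901 of 1657 peaks were members. It was 37.2% (33.9 to 40.5%) from 120 to below 150, 20.8% (16.7 to 25.6%) from 150 to below 200, and 3.61% (1.67 to 7.66%) at 200 or more. These intervals did not overlap. The intervals in the text cover the counting of peaks alone, and peaks that lie close together are not independent of each other.

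**Figure D1:**
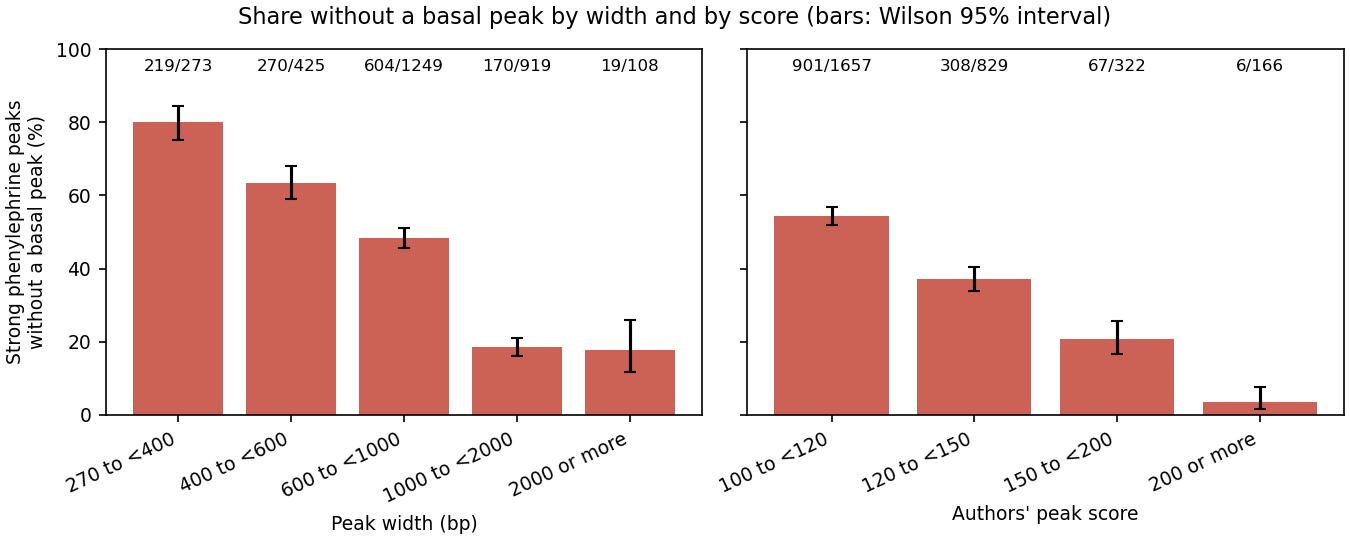
Percentage of strong phenylephrine peaks without a basal peak, by peak width in bp (left) and by the authors' peak score (right). Bars give the share, whiskers the Wilson 95% interval and the numbers members over all strong peaks; the share falls from 80.2% in the narrowest class to 17.6% in the broadest, and from 54.4% to 3.61% across the score bands.

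The limits of the rule cut through a continuous range. Just above the score limit stood chr15:55221241-55222075 with a score of 100.04 and chr10:30226408-30227046 with 100.07. Just below it stood chr3:53962000-53962728 with 99.98 and chr1:29271131-29271678 with 99.96, neither with a basal peak. From 95 to below 100, 518 of 789 peaks of sufficient width lacked a basal peak (65.7%), and from 100 to below 105, 361 of 583 did (61.9%). The width limit likewise separated similar peaks. The narrowest members, chr2:45747788-45748057 and chr6:32319913-32320182, were 270 bp wide, and the nearest peaks left out, chr1:153964019-153964287 and chr12:28671167-28671435, were 269 bp wide. The width limit removed 36 peaks scoring at least 100, of which 33 overlapped no basal peak.

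Members were narrower than shared peaks. Their median width was 670 bp (649 to 686), against 994 bp (973 to 1019) for shared peaks and 564 bp (562 to 565) for the 31587 phenylephrine peaks scoring under 100, of at least 270 bp, that also lacked a basal peak. The 1282 members covered 0.941 Mb. Below a score of 200, members were also narrower than shared peaks of like score. From 100 to below 120 the median member spanned 636 bp (623 to 657) and the median shared peak 955 bp (921 to 987). From 120 to below 150 the medians were 744 bp (710 to 811) and 1012 bp (965 to 1052), and from 150 to below 200 they were 827 bp (710 to 935) and 1112 bp (1044 to 1167). At 200 or more the medians were 2686 bp (429 to 5799) for the 6 members and 1060 bp (950 to 1158) for the 160 shared peaks. The members' interval is the full range of the 6 and contains that of the shared peaks, so no order can be told there.

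By width, 219 of 273 strong peaks narrower than 400 bp lacked a basal peak (80.2%, 75.1 to 84.5%). The share was 63.5% (58.9 to 68.0%) from 400 to below 600 bp, 48.4% (45.6 to 51.1%) from 600 to below 1000 bp, 18.5% (16.1 to 21.1%) from 1000 to below 2000 bp and 17.6% (11.6 to 25.8%) at 2000 bp or more. A broad peak offers more bases to overlap, so the midpoint alone was also placed, which lay outside every basal peak in 80.8% of all 41551 peaks. It lay outside in 81.3% of the narrowest class, 64.7%, 50.8% and 20.5% of the next 3, in the same order as by overlap. In the broadest class it lay outside in 21.3% (14.6 to 29.9%), above the class before it, while by overlap the broadest class stood lower, and the intervals of these last 2 classes overlapped both ways. The share differed by width among peaks of like score. Within scores of 100 to below 120, 86.4% (80.8 to 90.5%) of peaks under 400 bp and 21.1% (17.4 to 25.4%) of peaks from 1000 to below 2000 bp had no basal peak. From 120 to below 150 the same classes were at 84.9% (72.9 to 92.1%) and 22.1% (17.8 to 27.0%), within the intervals of the lower band. Between these widths the share was lower at the higher score. It went from 73.2% (67.8 to 78.0%) to 51.6% (41.5 to 61.6%) at 400 to below 600 bp and from 57.5% (53.9 to 60.9%) to 41.4% (36.3 to 46.6%) at 600 to below 1000 bp.

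**Figure D2:**
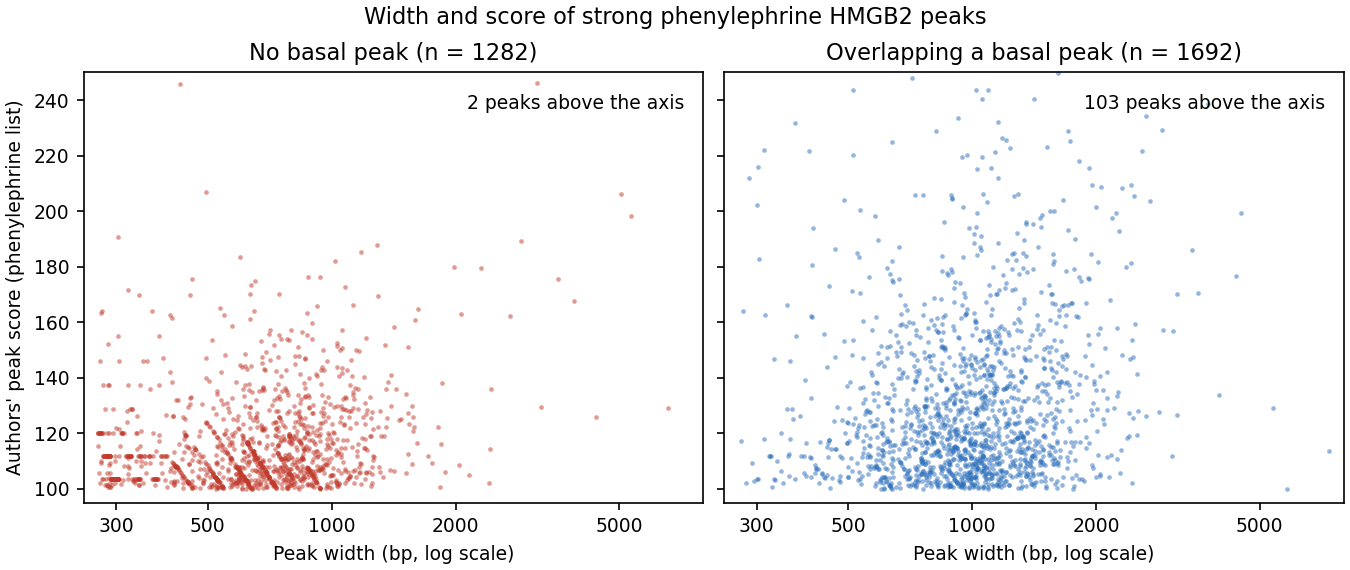
Width in bp (log axis) against the authors' score for each member (left) and each shared peak (right), up to a score of 250, with the number of peaks above the axis printed in each panel. Members form level rows of equal score at the narrow end, the longest at 103.75, 111.88 and 120.19, and slanted stripes between 400 and 1000 bp, which are fainter among shared peaks.

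A part of the members stood on a few repeated scores. At 103.75 there were 64 members, at 111.88 there were 45 and at 120.19 there were 21. With 101.25, 128.67 and 137.32 these made 6 scores that at least 5 members carried, a limit chosen after the values were seen. Together they held 147 members and 17 shared peaks, so 89.6% (84.0 to 93.4%) of the strong peaks on these scores had no basal peak. The scores were picked by their number of members, so a high share is built in. Among all strong peaks narrower than 400 bp the share was 80.2% (75.1 to 84.5%). The members on them had a median width of 301 bp (296 to 309), from 270 to 631 bp, and 146 of the 147 were narrower than 400 bp. That is below the 500 bp to which the chromatin was sheared. In the basal list no score from 100 to below 3100 was carried by more than 8 peaks. This range leaves out 3100, a top score at which peaks are tied. Only 18 of the 13713 basal peaks scoring at least 100 on these chromosomes were narrower than 400 bp. The phenylephrine list held 2720 peaks of any score under that width and the basal list 50.

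Broader members also fell on shared values. From 400 to below 600 bp, 53.7% of members (47.7 to 59.6%) had another member within 2 bp in width and 1 unit in score, against 19.4% of shared peaks (13.9 to 26.3%). From 600 to below 1000 bp the values were 45.7% (41.8 to 49.7%) and 29.1% (25.8 to 32.8%). These shares also depend on how many peaks a class holds, which was 270 members and 155 shared peaks in the first class and 604 and 645 in the second. They depend as well on how closely the scores lie. Over all widths the 5th and 95th percentiles of score were 101 and 153 for members and 102 and 291 for shared peaks. Read depth, which is unknown here, was not set against this pattern, and its part in it was not tested. Without the repeated scores 1135 members were left, 40.4% (38.6 to 42.2%) of the strong peaks, with a median width of 716 bp (689 to 733). Leaving out scores that were picked among members lowers this share by design.

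Among the 10 highest-scoring members were 6 broad peaks of at least 2000 bp and 3 peaks narrower than 500 bp. The first was chr2:243822465-243828263, 5799 bp wide with a score of 420. The nearest basal peaks lay 35.7 kb before it and 22.9 kb after it, and the nearer one scored 78.7 in the basal list. It stood alone at this level among the members, since the next score was 255.

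The second was chr10:74850919-74853130, 2212 bp wide, which began 138 bp after the end of a basal peak of 1351 bp with a basal score of 81.6. The widest member of all, chr10:74860258-74866829, lay 7.13 kb beyond it, with 6572 bp and a score of 129. No basal peak lay between these 2 members. They show the range that the overlap rule joins under 1 name, from a site beside a basal peak to a site kilobases away from any.

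The third, chr1:83486663-83489822, was 3160 bp wide with a score of 246 and lay 3.02 kb after a basal peak of nearly equal width, 3021 bp. The fourth, chr3:129552190-129552618, also scored 246 but spanned only 429 bp, 22.5 kb from the nearest basal peak. The fifth, chr2:30542635-30543130, was similar, with 496 bp, a score of 207 and 24.9 kb to a basal peak. High scores thus came with both broad and narrow shapes.

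The remaining 5 scored from 188 to 206. On chromosome 10 the site at chr10:16942468-16947514 spanned 5047 bp, 11.0 kb from a basal peak. On chromosome 3 the site at chr3:99900550-99905898 spanned 5349 bp, with basal peaks 35.9 kb before and 128 kb after it. The narrowest of the 10, chr4:6737615-6737917, was 303 bp wide and lay 1.92 kb from a basal peak of 1888 bp that scored 188 in its own list. The last were chr16:17941250-17944134 (2885 bp, 8.83 kb from a basal peak) and chr17:46979093-46980381 (1289 bp, 46.5 kb). Of the 10, 4 had a basal peak within 10 kb and 5 lay more than 20 kb from any.

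**Figure D3:**
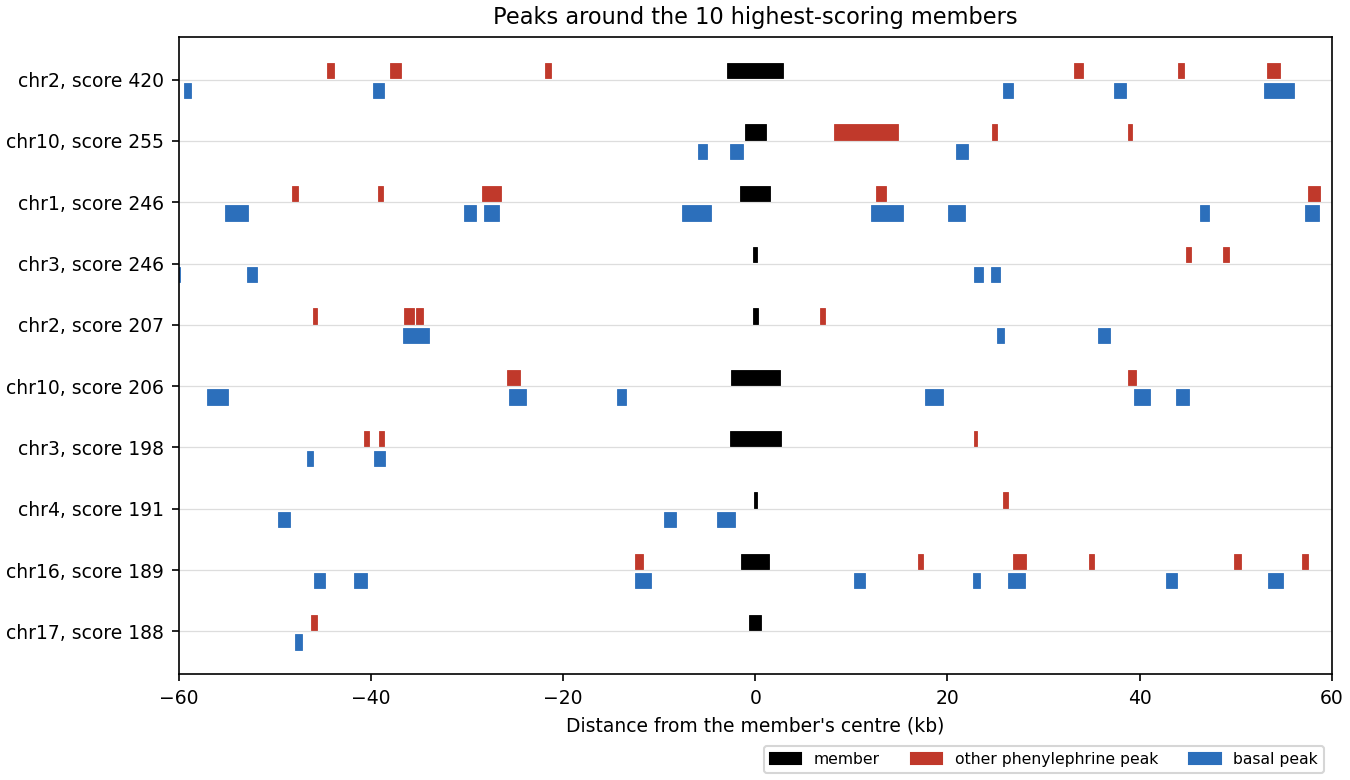
Peaks within 60 kb of the centre of each of the 10 highest-scoring members, in kb, drawn to scale; black marks the member, red other phenylephrine peaks and blue basal peaks. No blue bar lies under a black one by the rule, and the nearest blue bars range from 0.138 kb (second line) to 46.5 kb (last line) away.

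The 5 strongest shared peaks stood far above these sites. They scored from 3100 to 3107 and each overlapped a basal peak with a basal score of 3100. The value 3100 is a tied score near the top of both lists. Equal scores at this value therefore do not show equal strength, and peaks that share it are not ranked among themselves. At chr8:34246164-34247286 a phenylephrine peak of 1123 bp lay on a basal peak of 1383 bp. At chr6:91379490-91381057 the widths were 1568 and 2019 bp, and at chr4:75900466-75903902 they were 3437 and 3460 bp. The remaining 2 were chr2:61088789-61090676 and chr2:156715573-156716883. Of all 1692 shared peaks, 1117 (66.0%) lay wholly within basal peaks, 58 were covered over less than 50% of their length, and 7 overlapped by fewer than 50 bp.

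Broad members were few. A width of at least 2000 bp was reached by 19 members on 11 chromosomes, out of 108 strong peaks of that width (17.6%, 11.6 to 25.8%). Their scores ran from 102 to 420 with a median of 163, and 4 of them scored below 120. The 5 widest included chr12:12136405-12140803, with 4399 bp, a score of 126 and a basal peak 10.6 kb away, and 4 sites already named. The nearest basal peak lay a median of 11.0 kb away, from 0.138 to 104 kb, and 18 of the 19 had a basal peak with its midpoint within 50 kb.

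Further broad members differed in their basal neighbours and were picked after their values were seen. At chr8:42091354-42094906 (3553 bp, score 176) the nearest basal peak, 5.23 kb away, was among the strongest of its list with a basal score of 1600. At chr8:75690580-75692890 (2311 bp, score 180) the nearest basal peak was 104 kb away and scored 78.3. Broad members thus occurred beside a strong basal site and in a stretch without basal calls.

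Most members lay within 50 kb of a basal peak, though not on one, and so did most other phenylephrine peaks. Among those scoring under 100 without a basal peak, 39.2% had one within 10 kb and 80.3% within 50 kb. Of shared peaks, 90.1% had another basal peak within 50 kb. For members, the nearest basal peak was a median of 14.2 kb away, with quartiles of 5.42 and 32.7 kb. It lay within 1 kb of 89 members (6.94%), within 10 kb of 494 (38.5%), within 50 kb of 1063 (82.9%) and within 100 kb of 1183 (92.3%). Over all phenylephrine peaks on these chromosomes 74.3% had no basal peak within 1 kb, and of the strong peaks 1193 had none (40.1%, 38.4 to 41.9%). Both shares count an overlapping basal peak as near, so they are not on the same footing as the 6.94%. Of all phenylephrine peaks, 32905 overlapped no basal peak, and 30891 of these had none within 1 kb. The distance was longer for narrow members. Those under 400 bp had a median of 18.4 kb (14.6 to 25.2) and those from 1000 to below 2000 bp 11.1 kb (8.61 to 13.8).

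At the near end, 13 members lay less than 100 bp from a basal peak. The nearest was chr10:57610652-57611278, 4 bp beyond a basal peak of 1600 bp. At chr4:81634695-81635737, 1043 bp wide with a score of 141, a basal peak ended 5 bp before the member and another began 97 bp after it. Such a member is a site between 2 basal calls. The other members of the nearest 5 were chr10:69096007-69096602 at 20 bp, chr4:171875996-171876394 at 32 bp and chr20:50199969-50200253 at 34 bp. The 89 members within 1 kb had a median score of 112 and a median width of 714 bp.

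At the far end, 99 members (7.72%) had no basal peak within 100 kb and 11 had none within 500 kb. The farthest was chr16:52442998-52443727, a peak of 730 bp with a score of 114, 924 kb from a basal peak. The next were chr8:6919157-6919427 at 817 kb, chr3:82964927-82965261 at 717 kb, chr6:67035419-67035721 at 714 kb and chr4:131124378-131125314 at 568 kb. Of the 99, 34 were narrower than 400 bp and 31 stood on a repeated score. Of the 11, 6 did both. The highest score among these 11 was 120.19, at the sites on chromosomes 8 and 3. Among members on a repeated score 21.1% lay over 100 kb from a basal peak, and among the others 5.99%. Whether the narrow members differ in kind from the rest was not tested.

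Taken over all scores, the surroundings of members held fewer peaks than those of shared peaks. Their values lay nearer to those of weak unshared peaks. Another basal peak lay within 10 kb of 38.5% of members (35.9 to 41.2%) and 43.0% of shared peaks (40.7 to 45.4%), leaving out the basal peak that a shared peak overlaps. The intervals overlapped slightly. Within 50 kb the values were 82.9% (80.8 to 84.9%) and 90.1% (88.6 to 91.4%). For weak phenylephrine peaks without a basal peak they were 39.2% (38.6 to 39.7%) and 80.3% (79.9 to 80.7%). No other basal peak lay within 100 kb of 7.72% of members (6.38 to 9.31%), 3.31% of shared peaks (2.56 to 4.27%) and 10.4% of weak unshared peaks (10.1 to 10.7%).

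The phenylephrine list, which did not enter the choice of members beyond their own score and width, also placed members below shared peaks. Another phenylephrine peak of any score lay within 10 kb of 33.4% of members (30.9 to 36.0%), 38.4% of shared peaks (36.1 to 40.7%) and 34.0% of weak unshared peaks (33.5 to 34.6%). Counting only neighbours that scored under 100, the values for members and shared peaks were 31.7% (29.2 to 34.3%) and 33.6% (31.4 to 35.9%), with overlapping intervals. On average 2.67 basal and 2.28 phenylephrine peaks had their midpoints within 50 kb of a member, against 3.32 and 2.65 around a shared peak. Among peaks scoring 100 to below 120 the shares with another phenylephrine peak within 10 kb were 33.0% (30.0 to 36.1%) and 39.4% (36.0 to 42.9%). From 120 to below 150 they were 33.8% (28.7 to 39.2%) and 34.9% (31.0 to 39.1%), so the difference was not seen in that band at this number of peaks.

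**Figure D4:**
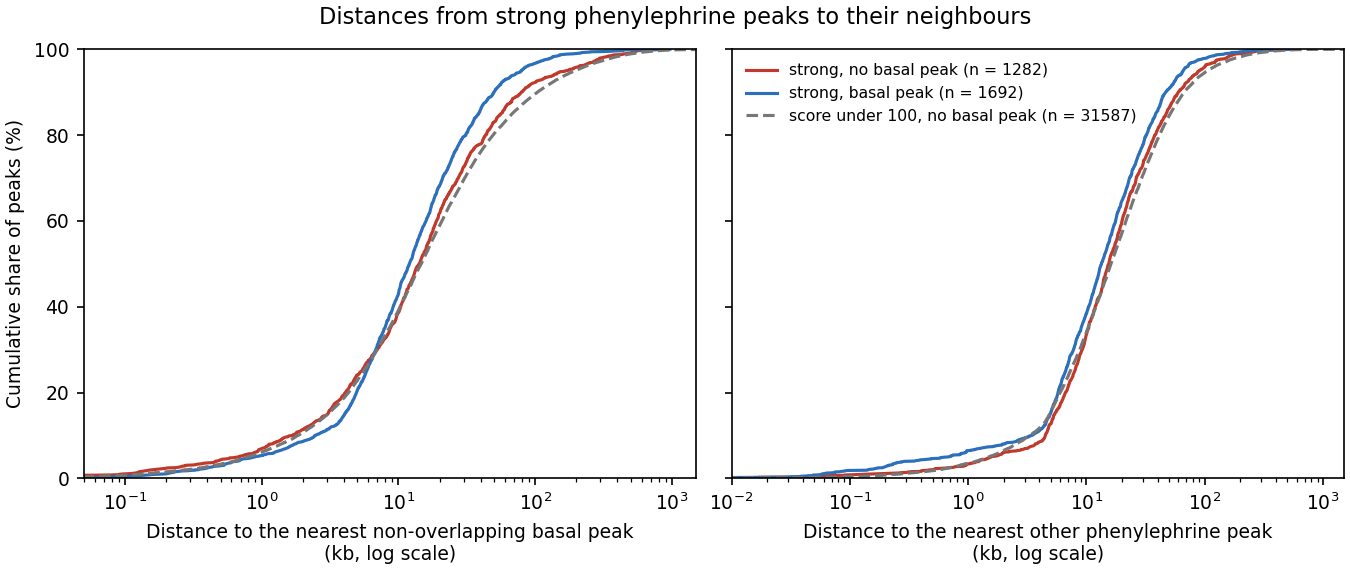
Cumulative percentage of peaks against the distance in kb (log axis) to the nearest non-overlapping basal peak (left) and to the nearest other phenylephrine peak (right), for members (red), shared peaks (blue) and phenylephrine peaks of at least 270 bp scoring under 100 without a basal peak (grey dashes). The members' curve runs close to the grey one, and at 50 kb it stands at 82.9% on the left, below the shared peaks at 90.1%.

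Strong phenylephrine peaks lacked a basal peak more often where basal peaks were sparse. Over phenylephrine peaks of any score the share was 79.2%, and it was not split by basal density. The trend is therefore not shown to be particular to strong peaks. The 2974 strong peaks were split into 4 nearly equal parts by the number of basal peaks with midpoints within 500 kb, leaving out those they overlap. In the sparsest part, with 0 to 17 such basal peaks, 55.2% were members (51.7 to 58.8%). In the middle parts 43.7% (40.2 to 47.3%) and 42.3% (38.8 to 45.8%) were, and in the densest part, with 37 to 90 basal peaks, 31.2% (28.0 to 34.6%). The bases within 500 kb that lay in basal peaks averaged 1.19% in the sparsest and 6.88% in the densest part, so there was also more basal sequence to overlap, and its part in the trend was not tested.

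The basal peaks nearest to members were close to their whole list in median score and width. The 1251 different basal peaks nearest to a member had a median score of 74.7 and a median width of 1069 bp, against 76.5 and 1113 bp for all 42482 basal peaks on these chromosomes. Of them 17.9% (15.9 to 20.1%) overlapped some phenylephrine peak, against 19.7% (19.3 to 20.1%) of all basal peaks. Of the 89 nearest to members within 1 kb, 10 did (11.2%, 6.22 to 19.5%). This share was lower than over all basal peaks, and the intervals overlapped only slightly.

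Members were found on all 20 chromosomes examined. Chromosome 1, the longest, held the most, and chromosome 20 the fewest, 26. Per Mb, chromosome 3 had 0.690 members, chromosome 12 had 0.684 and chromosome 10 had 0.678, and chromosome 15 had the lowest value, 0.319. On chromosomes 10 and 12 shared peaks were denser still, at 1.10 and 1.24 per Mb. Chromosome 3 was the reverse, with 0.614 shared peaks per Mb. So was chromosome 9, with 0.566 members and 0.539 shared peaks per Mb.

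As a share of the strong peaks, members made up from 26.4% on chromosome 16 to 52.9% on chromosome 3. On chromosome 16, 33 of 125 strong peaks were members (19.5 to 34.7%), and it carried 1.02 shared peaks per Mb. On chromosome 3, 118 of 223 were (46.4 to 59.4%). These intervals did not overlap, but the chromosomes are the extremes of 20. Next to chromosome 3 stood chromosomes 9 (51.2%, 42.5 to 59.8%) and 2 (49.2%, 43.1 to 55.3%), and next to chromosome 16 stood chromosomes 11 (35.3%, 26.0 to 45.9%), 12 (35.6%, 26.4 to 45.8%) and 20 (35.6%, 25.6 to 47.1%). Neighbours in this order had overlapping intervals. Over phenylephrine peaks of any score the share without a basal peak was 74.3% on chromosome 16 and 80.1% on chromosome 3.

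**Figure D5:**
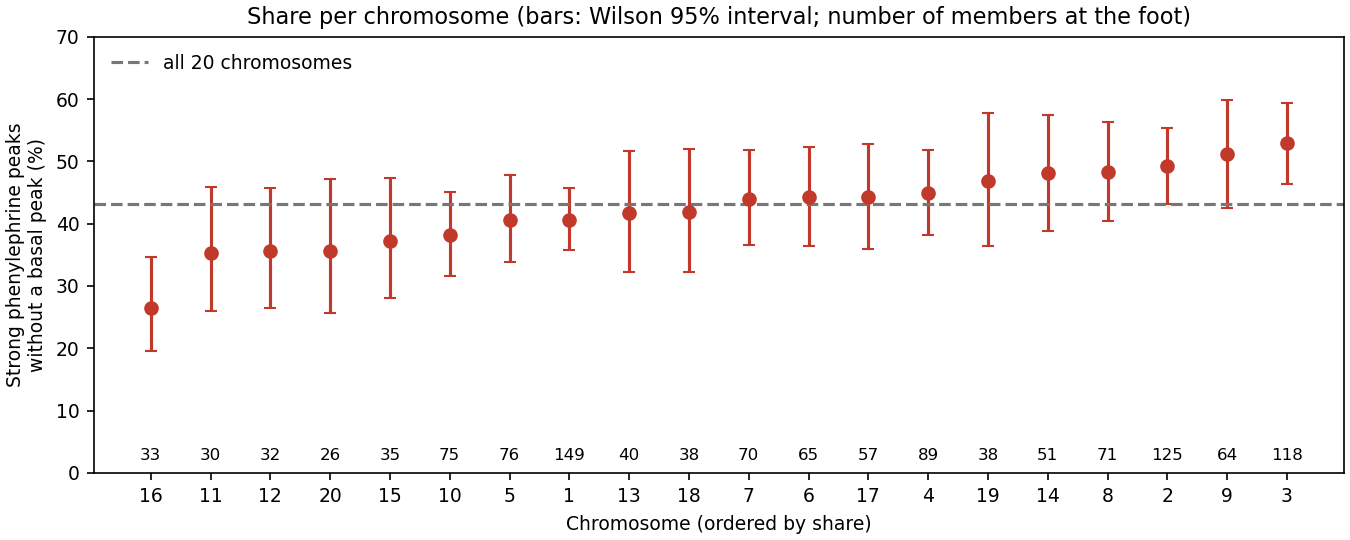
Percentage of strong phenylephrine peaks without a basal peak on each chromosome, ordered by the share, with Wilson 95% intervals and the number of members at the foot; the dashed line is the share over all 20 chromosomes, 43.1%. Chromosome 16 (26.4%) and chromosome 3 (52.9%) are the ends of the order, and most intervals include the line.

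Most members had no other member close by. With 50 kb as the longest gap, 1198 members (93.4%) stood alone, 39 groups held 2 members and 2 groups held 3. Members were sparse, at 0.319 to 0.690 per Mb by chromosome, and no like count was made for shared peaks. The count therefore describes a sparse set and shows no particular spacing. The groups of 3 were chr9:853050-879734, 26.7 kb long with 1 basal peak inside, and chr12:2618223-2703363, 85.1 kb long with 4 basal peaks inside. The pair with the highest score was the one on chromosome 10 described above. In bins of 1 Mb, 698 bins held 1 member, 207 held 2, 44 held 3, 7 held 4 and 2 held 5.

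The bins with 5 members were chr4:66000001-67000000, with 28 phenylephrine and 30 basal peaks in all, and chr9:10000001-11000000, with 33 and 54. Among the bins with 4, the ones with the highest scores were chr10:62000001-63000000, chr3:158000001-159000000 and chr1:173000001-174000000. The bins on chromosomes 3 and 1 held no shared strong peak, although they held 47 and 18 basal peaks. Each of these 5 bins thus held basal calls at other positions. On chromosome 1 their number, 18, was close to the chromosome's average of 17.8 basal peaks per Mb.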

How the data were processed

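The deposited files are 1 peak list per library, in rn4 coordinates. The submitters' processing notes name MACS 1.4.1, which calls peaks, and Bowtie 0.12.7, which aligns reads. Per the file headers the lists are bedGraph tracks, and their 4 columns hold chromosome, start, end and the authors' score of each peak. The sources used here do not give calling settings, control library, read depth or the scale of the score, so a score was used only within its list. Per the labels' protocols, cells were fixed in 1% formaldehyde for 10 min.

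Overlaps, distances and intervals were computed in Python 3.11.15 with scipy 1.17.1, pandas 2.3.3 and numpy 2.4.6. Overlap and distance functions were tested on simulated data, and the member count was identical with bedtools 2.31.1. Starts are printed with 1 added. Since the lowest start is 1, the lists may themselves be 1-based, and printed starts could then be 1 bp too high. Shares carry Wilson 95% intervals and medians exact binomial ones. Figures were drawn with matplotlib 3.10.9.

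The members, the rule and the comparisons were chosen with earlier results of these data known. Regions are named by rank: the 10 highest scores, the 5 farthest, nearest and widest members, the 5 strongest shared peaks, the 5 bins and 3 groups with most members, and 2 peaks on each side of each limit. Widths by class, repeated scores, the split by basal density and the basal neighbours were added after the data were seen. The gene table at hand is of another build, so genes and sequences were not assigned.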

Additional observations from a re-analysis of the deposited data

How the results depend on the processing

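No paired analysis was possible because there is only 1 library of each condition, so none was left out. Read depth, which is unknown, limits every value. Each setting shows what it removes, and otherwise the cause was not tested. The midpoint, the repeated scores and the counting of starts from 1 were added after seeing the data, and the last changed nothing.

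The number of members stayed within 1.5 times of 1282 except with a score of at least 150 (73), of at least 200 (6), or a width of at least 600 bp (793). Their share of strong peaks, 43.1%, was 15.0%, 3.61% and 34.8% under these settings. It was 40.1% with no basal peak within 1 kb, 45.1% when at least 50% had to be covered, 53.2% when only basal peaks scoring at least 100 counted, and 46.1% with basal peaks set to 600 bp. It was 45.2% by midpoint and 40.4% without repeated scores, which were picked among the members. With all sequences, merged peaks or no width limit it stayed inside its interval.

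Within 50 kb in place of 10 kb, 82.9% of members and 90.1% of shared peaks had another basal peak, and 86.3% and 90.8% another phenylephrine peak. With a width of at least 600 bp, 41.6% of members had another basal peak within 10 kb, against 42.9% of shared peaks, so that difference was small there. With a score of at least 150, 37.0% of members and 40.7% of shared peaks had another phenylephrine peak within 10 kb. Median scores were then 163 for members and 182 for shared peaks, and median widths 847 and 1097 bp. With a width of at least 600 bp the median scores were 113 and 124, and the median widths were 818 and 1055 bp. Without repeated scores the members' median width was 716 bp. Members stayed the narrower and lower-scoring set in each of these. On chromosomes 3 and 16 the shares at a score of at least 150 were 31.2% (18.0 to 48.6%) and 9.09% (3.14 to 23.6%). These intervals overlapped, and neither chromosome was then at an end of the order. Chromosome 9 stood at 40.0% (16.8 to 68.7%), chromosome 14 at 0% (0 to 20.4%) and chromosome 20 at 0% (0 to 22.8%). All 20 chromosomes had a lower share at this score limit than at a score of at least 100.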

Other observations

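Strong phenylephrine peaks outside chromosomes 1 to 20 were not part of the members. On chromosome X, 17 of 45 such peaks overlapped no basal peak (37.8%, 25.1 to 52.4%), with scores up to 137. In unplaced sequence 13 of 114 did (11.4%, 6.79 to 18.5%), with scores up to 155. The mitochondrial genome held 1 strong peak, which overlapped a basal peak. The interval for X included the share of strong peaks on chromosomes 1 to 20, and that for unplaced sequence lay below it. The share over phenylephrine peaks of any score was not computed for these sequences. Whether the low value in unplaced sequence is particular to strong peaks is therefore not known.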
